A study of Mus musculus with 10 samples.

Results

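The Bcl2 family of apoptosis regulators was examined in 4T1, a widely used mammary carcinoma line of the mouse, grown in collagen gels of 2 densities. The family was represented by 10 listed genes: Bcl2, Bcl2l1, Mcl1, Bax, Bak1, Bcl2l11, Bbc3, Pmaip1, Bid and Bad. A gene was measured by the array row whose platform annotation names that gene alone, and 9 of the 10 members were matched to such a row, each to exactly 1, among 30142 genes with a single-gene row. Bax, one of the pair of pore-forming effectors, was not analysed here. The HD samples were 4T1 cells in gels with 3.5 mg of collagen per mL, and the LD samples were the same line at 2 mg per mL. Both groups held 5 arrays. Gels of both densities started from 50000 cells and were cultured for 5 days at 37 °C under 5% CO2, in RPMI with 10% serum that was renewed on day 3. The labels give no genetic change or drug in either group. They do not say whether the 5 samples of a group were separate cultures, so the replicate spread behind each p-value could be technical.

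Mitochondrial apoptosis is set by contacts between the proteins of this family. The guardians BCL2, BCL-XL (from Bcl2l1) and MCL1 hold the effectors BAX and BAK in check, and the effectors, once released, open pores in the outer mitochondrial membrane that let cytochrome c out. The proteins with only a BH3 domain (BIM from Bcl2l11, PUMA from Bbc3, NOXA from Pmaip1, BID and BAD), sense stress and either activate the effectors or block the guardians. Epithelial cells that lose their contact with matrix die by this route in a process called anoikis, in which BIM and BMF are known to take part. Much control of the family lies in protein stability, phosphorylation and cleavage, which an RNA array does not measure.

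All values are log2 signals as deposited, 1 per array. Much of the transcriptome differed between the densities, with 9056 of 17800 tested genes (50.9%) past an adjusted p of 0.05 in limma with Benjamini-Hochberg adjustment, of which 61.7% were higher in HD. That share was 72.1% after quantile normalization and also after scaling on the control rows, 44.7% over all transcript cluster rows, and 33.2% among calls of at least 1.5-fold (138 higher and 278 lower). Control features other than the ERCC rows differed between the groups too. The median of the negative control rows was 5.26 to 5.58 in HD arrays and 5.61 to 5.75 in LD arrays, and that of the positive control rows 9.24 to 9.35 in HD and 9.20 to 9.23 in LD (exact two-sided permutation p = 0.0079 in both cases, the least that 10 arrays in 2 groups of 5 allow). The median of the background rows went the other way from the negative control rows, at 3.58 to 3.72 in HD and 3.40 to 3.54 in LD, with the same p. That of the ERCC rows overlapped, at 4.41 to 4.61 in HD and 4.36 to 4.47 in LD (exact two-sided permutation p = 0.11). The negative control medians lay above the background rows in both groups, and what RNA the positive and negative rows report was not established here. The part of the control rows in the members' changes was addressed only by rescaling the arrays on the positive and negative ones. The 6 epithelial markers were all above the signal floor, at 8.84 to 12.31, with a summed linear signal of 12050 to 12870 in HD and 14340 to 14530 in LD. Of them, 5 fell in HD. The floor of 5.24 was reached by none of the 4 endothelial markers, by 2 of the 5 leukocyte markers with a row, and by 3 of the 4 fibroblast markers with a row, all collagen genes. Of the collagen genes, Col3a1 was called higher, at 5.80 in HD and 5.65 in LD (limma adjusted p = 0.033). Col1a1 and Col1a2 had no call. The summed linear signal of the leukocyte list was 302 to 374 in HD and 443 to 496 in LD; that of the fibroblast list was 232 to 278 in HD and 218 to 244 in LD. The general leukocyte marker Ptprc was near background, at 3.06 to 3.20, while Cd68, a lysosomal protein of macrophages, averaged 7.83 in HD and 8.57 in LD. The other 4 leukocyte markers with a row had slightly higher means in HD, and 1 of them, Cd3e, was called higher, at 5.45 in HD and 5.29 in LD. These Cd3e means lie within the range of the negative control medians in HD and below it in LD, and the floor lies under both ranges. The part of these markers in the members' changes was not tested. In such bulk RNA, fewer cells of a kind and less RNA per cell cannot be told apart. The sample titles name no cells other than 4T1.

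Of the 8 members above the floor, 1 rose and 3 fell in HD as deposited; after quantile normalization, and also after scaling on the control rows, 3 rose (Bak1, Bcl2l1 and Bad) and 2 fell (Bcl2l11 and Bcl2). Bak1, the effector, rose 1.23-fold. Bcl2l11, which encodes the death activator BIM, fell by 0.37 on the log2 scale (1.29-fold lower), and the guardian Bcl2 fell by 0.23 (1.18-fold lower). Bid fell by 0.10, a call that did not survive most changes of the processing. The guardians Bcl2l1 and Mcl1 and the BH3-only genes Bbc3 and Bad did not pass the test, and Pmaip1 was below the floor. The 4 calls among 8 tested members are a share near the 50.9% called over all genes tested, so no excess of changed genes was seen in the family. In HD, 31.4% of all genes were higher and 19.5% lower. The median change of the 8 members was 0.047, against 0.055 over all genes. No member changed by 1.5-fold or more.

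To show the regions upstream of the members with the clearest separation, promoter sequence is printed for the 3 whose HD and LD arrays did not overlap. Each is the 250 bases before the transcript start, 5′ to 3′, in RefSeq's table for GRCm38.p6, and for Bcl2l11, which has 2 windows there, the more upstream one is shown. Capitals mark matches to the searched motifs.
Bak1, chr17:27028628-27028877, minus strand: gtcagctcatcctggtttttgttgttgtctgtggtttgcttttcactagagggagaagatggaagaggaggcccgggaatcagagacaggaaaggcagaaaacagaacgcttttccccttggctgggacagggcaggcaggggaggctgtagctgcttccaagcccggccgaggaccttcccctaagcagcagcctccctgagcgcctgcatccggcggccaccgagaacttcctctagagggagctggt
Bcl2l11, chr2:128125788-128126037, plus strand: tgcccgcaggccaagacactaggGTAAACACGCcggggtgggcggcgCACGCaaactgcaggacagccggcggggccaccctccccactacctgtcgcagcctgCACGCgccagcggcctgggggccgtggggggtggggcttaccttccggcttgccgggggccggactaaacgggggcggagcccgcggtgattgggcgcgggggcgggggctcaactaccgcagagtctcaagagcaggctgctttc
Bcl2, chr1:106714291-106714540, minus strand: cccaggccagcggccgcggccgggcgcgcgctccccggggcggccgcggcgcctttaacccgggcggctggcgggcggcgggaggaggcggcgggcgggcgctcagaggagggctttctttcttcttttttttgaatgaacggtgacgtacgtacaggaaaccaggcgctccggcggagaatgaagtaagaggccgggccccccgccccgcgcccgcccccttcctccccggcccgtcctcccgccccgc

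The motifs searched, on both strands, were the FOXO core GTAAACA, the hypoxia response element cores ACGTG and GCGTG, the E box CACGTG (which contains ACGTG), the E2F forms TTTCGCGC and TTTGGCGC, the AP-1 site TGACTCA and the composite C/EBP-ATF site TGATGCAA. In the printed windows only Bcl2l11 held any. Its FOXO core begins 227 bases before the start and overlaps a GCGTG match, read as CACGC on the printed strand, that begins 222 bases before it; 2 more CACGC matches begin at 203 and 146 bases. Of 32851 windows of this length in the table, 3.17% held GTAAACA and 28.2% held GCGTG. Over the 14 windows of the 8 members present in the table, 2 genes held GTAAACA (Bcl2l11 and Bbc3), 4 held GCGTG (these and Bcl2l1 and Bad), and 1 held ACGTG and the E box (Bbc3). Of all windows, 16.6% and 6.02% held the last 2 motifs. A member was counted if any of its windows held the motif, whereas the percentages are of single windows, so the 2 are not like for like. TTTCGCGC was found in 1 of the 3 windows of Bcl2l1 and in 0.256% of all windows. TTTGGCGC, TGACTCA and TGATGCAA, present in 0.417%, 4.46% and 0.791% of all windows, were in none of the members' windows. The G and C share was 58.4% for Bak1, 72.0% for Bcl2l11 and 74.8% for Bcl2, against a median of 52.4% over all windows. The base pair CG, which GCGTG contains, occurred 8 times for Bak1, 24 for Bcl2l11 and 36 for Bcl2, against a median of 6. The share of GCGTG among windows as rich in CG was not computed. A match is a string of letters in this window and shows no binding.

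Among the guardians, Bcl2 was the one that fell. This protein holds BH3-only proteins and effectors at mitochondria and the endoplasmic reticulum. Its signal was 8.34, 8.26, 8.30, 8.34 and 8.37 in the 5 HD arrays (replicates 1 to 5), against 8.61, 8.58, 8.51, 8.60 and 8.49 in the LD arrays. Every HD array lay below every LD array, with a gap of 0.12 between the groups. The means were 8.32 ± 0.045 in HD and 8.56 ± 0.054 in LD (SD, n = 5 each), a change of -0.23 ± 0.038 SE (limma adjusted p = 0.00016). Of all genes tested, 9.50% had a more negative change.

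Bcl2l1 encodes BCL-XL, a guardian with high levels in many epithelial tumours. Its HD signals were 8.03, 8.05, 8.03, 8.02 and 7.89, against LD signals of 7.90, 7.88, 7.96, 7.93 and 7.96. HD replicates 1 to 4 lay above all LD arrays, and HD replicate 5 lay among them. The difference was 0.077, with a 95% interval of -0.0058 to 0.159 (limma adjusted p = 0.11), and without HD replicate 5 it was 0.10 (limma adjusted p = 0.026). It also passed after quantile normalization (0.13, limma adjusted p = 0.014) and after scaling on the control rows (0.12, limma adjusted p = 0.031).

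Mcl1 encodes a short-lived guardian whose protein is rapidly turned over. Its HD signals were 10.09, 9.96, 10.01, 9.97 and 9.97, against LD signals of 9.94, 9.93, 9.90, 9.92 and 9.96. The groups touched at 9.96, where HD replicate 2 lay just under LD replicate 5, and the other 4 HD arrays lay above all LD arrays. The difference was 0.067 with a 95% interval of -0.0086 to 0.142 (limma adjusted p = 0.12). Its sign turned after scaling on the control rows (-0.059, limma adjusted p = 0.27).

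Bak1 encodes BAK, the effector that sits in the outer mitochondrial membrane. Its HD signals were 9.11, 9.35, 9.17, 9.05 and 9.08, against LD signals of 8.93, 8.73, 8.87, 8.81 and 8.94. All HD arrays were above all LD arrays, with a gap of 0.11, and HD replicate 2 stood highest. The means were 9.15 ± 0.119 in HD and 8.86 ± 0.089 in LD (SD, n = 5 each), a change of 0.30 ± 0.059 SE (limma adjusted p = 0.00086). Without HD replicate 2 the change was 0.25 (limma adjusted p = 0.0012). Of all genes tested, 91.1% had a smaller or more negative change than Bak1.

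**Figure D1:**
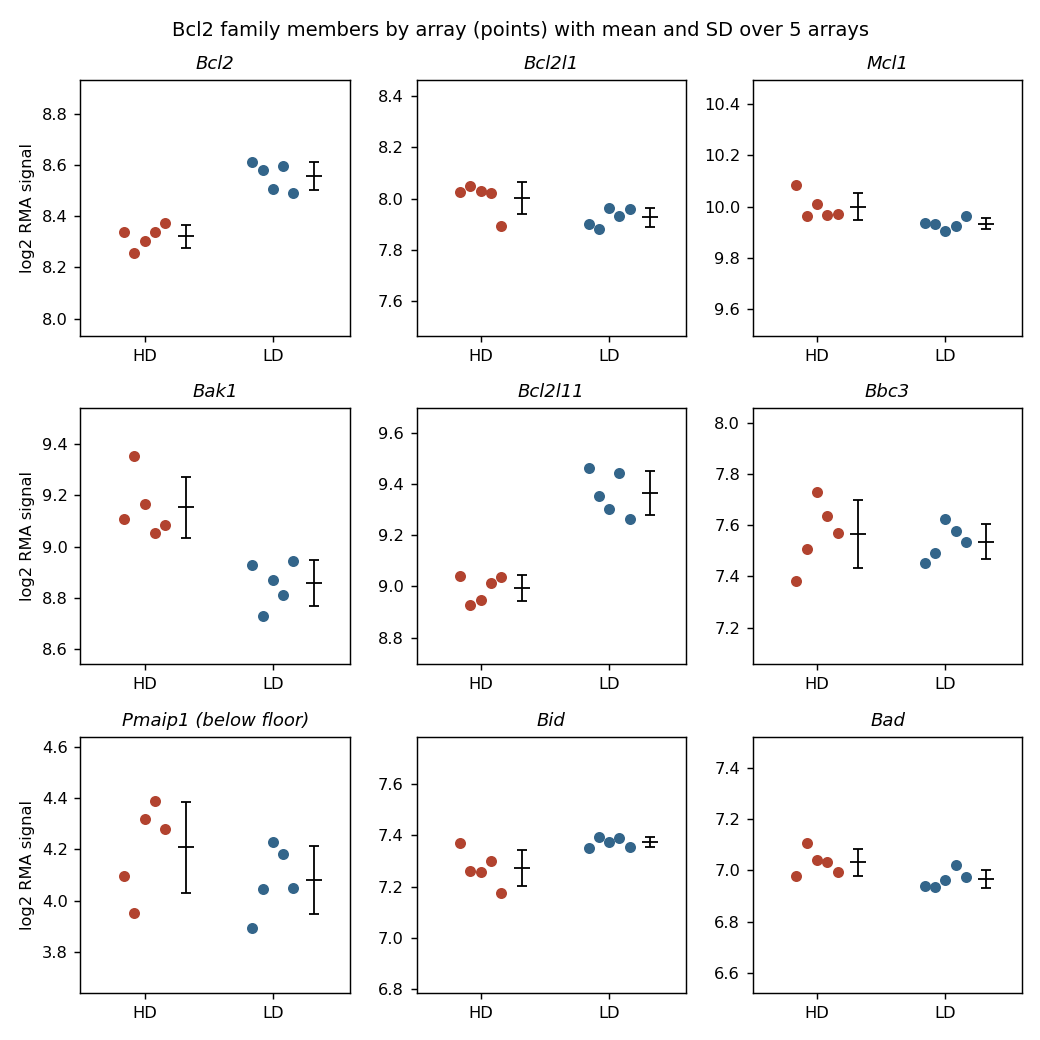
Log2 RMA signal of the 9 measured members in each HD array (left, red) and LD array (right, blue), with the mean and SD over 5 arrays beside the points; every panel spans 1 log2 unit. The HD and LD points are separate for Bcl2, Bak1 and Bcl2l11 and overlap for the other 6 genes.

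Bcl2l11 had the largest change of the 8 tested members. Its product BIM binds all guardians and can activate BAX and BAK directly; its transcription is known to be raised by FOXO factors and its protein to be marked for degradation by ERK. The HD signals were 9.04, 8.93, 8.95, 9.01 and 9.04, against LD signals of 9.46, 9.35, 9.30, 9.44 and 9.26. The lowest LD array was 0.22 above the highest HD array. The means were 8.99 ± 0.052 in HD and 9.36 ± 0.087 in LD (SD, n = 5 each), a change of -0.37 ± 0.045 SE (limma adjusted p = 1.5e-05). Only 4.30% of all genes tested fell by more, and over 20 alternatives, the fold threshold aside, the change stayed between -0.43 and -0.34 and was called each time. For a gene with 1 row, averaged rows, all rows, filter changes, the replicate block and the trended fit could not move the change itself.

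Bid encodes a BH3-only protein that caspase-8 cleaves, linking death receptors to mitochondria. Its HD signals were 7.37, 7.26, 7.26, 7.30 and 7.18, against LD signals of 7.35, 7.39, 7.37, 7.39 and 7.36. HD replicates 2 to 5 lay below all LD arrays and HD replicate 1 among them. The change was -0.10 ± 0.039 SE (limma adjusted p = 0.042). The call was lost on leaving out any 1 array other than HD replicate 1 (limma adjusted p = 0.056 to 0.1), and the change was -0.021 after quantile normalization and -0.0025 after scaling on the control rows.

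Bbc3 encodes PUMA, a BH3-only protein induced by p53 and FOXO factors that binds all guardians. Its HD signals were 7.38, 7.51, 7.73, 7.64 and 7.57, against LD signals of 7.45, 7.49, 7.62, 7.58 and 7.53. The LD range lay inside the HD range. The difference was 0.029 with a 95% interval of -0.096 to 0.155 (limma adjusted p = 0.70), and its sign turned without HD replicate 3 (-0.012).

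The sensitizers BAD and NOXA bind guardians without activating effectors. Bad, whose protein is silenced by AKT phosphorylation, had HD signals of 6.98, 7.11, 7.04, 7.03 and 6.99, against LD signals of 6.94, 6.94, 6.96, 7.02 and 6.97. HD replicates 2 to 4 lay above all LD arrays, and the other 2 lay among them. The difference was 0.064, with a 95% interval of -0.013 to 0.142 (limma adjusted p = 0.15); it passed after quantile normalization (0.15, limma adjusted p = 0.007) and after scaling on the control rows (0.19, limma adjusted p = 0.0077). Pmaip1, which encodes NOXA, a partner of MCL1, had signals of 4.10, 3.95, 4.32, 4.39 and 4.28 in HD, against 3.89, 4.05, 4.23, 4.18 and 4.05 in LD. These overlap, and all lie below the medians of the negative control rows, so no fold is given; with no floor its limma adjusted p was 0.27.

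The HD and LD arrays did not overlap for 3 of the 8 tested members (37.5%), against 36.7% of all genes tested. HD lay above LD for 1 of them and below for 2, against 21.6% and 15.1% of all genes. Of the 3 guardians, 1 was called lower and 2 had no call. Of the 4 tested BH3-only members, 2 (Bcl2l11 and Bid) were called lower and 2 had no call. Over all genes tested, 19.5% were called lower. The call of Bid was kept in 5 of 20 alternatives, the fold threshold aside. Changes were also compared between members within arrays, where a shift equal for all rows of an array cancels. A shift that varies between rows does not cancel. The medians of the control rows differed by unlike amounts, HD minus LD (-0.25 for the negative and 0.066 for the positive rows). The pairings use the deposited values only. Relative to Bcl2l1 and to Mcl1, Bcl2l11 was lower in HD by 0.45 and 0.44 on the log2 scale. Relative to Bcl2, which itself fell, Bcl2l11 changed by -0.14, with HD arrays at -0.16 to -0.11 and LD arrays at -0.037 to 0.046 around the LD mean of 0. Bak1 rose relative to Bcl2 by 0.53, to Mcl1 by 0.23 and to Bcl2l1 by 0.22. For Bak1 relative to Bcl2l1, the lowest HD array and the highest LD array were level at 0.10 after rounding. In all 6 of these pairings the HD and LD arrays did not overlap. Bcl2l11 and Bak1 did not overlap on their own either, so this outcome was largely fixed by the choice of pairings. The share over all gene pairs was not computed. The pairings were picked from members with known changes and are given without a test.

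**Figure D2:**
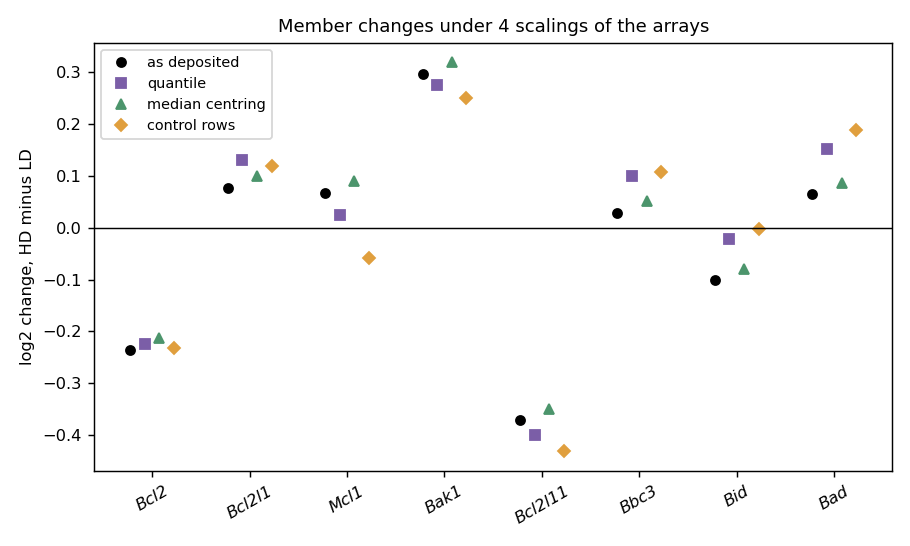
Log2 change (HD minus LD) of the 8 tested members as deposited and after quantile normalization, median centring and scaling on the control rows. Bcl2, Bak1 and Bcl2l11 stay at -0.21 to -0.23, 0.25 to 0.32 and -0.35 to -0.43, whereas Mcl1 crosses 0 and Bid approaches it.

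**Figure D3:**
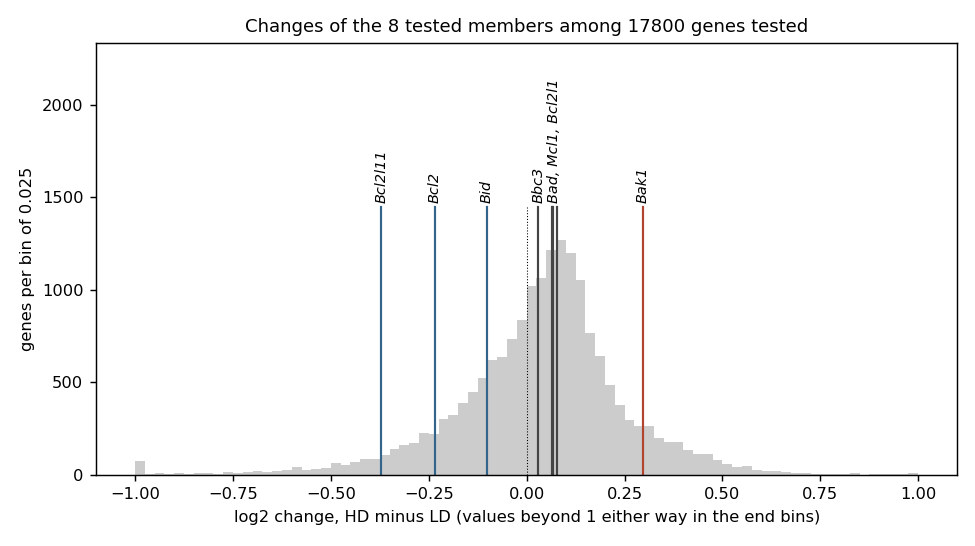
Histogram of the log2 change (HD minus LD) of 17800 genes tested, in bins of 0.025, with the 8 members as vertical lines (blue called lower, red called higher, dark grey no call). Bcl2l11 and Bcl2 lie in the left tail and Bak1 in the right, and 4 members lie near the peak.

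The family has further genes outside the 10. Of 15 such genes, 9 were tested, 5 were below the floor and Bcl2a1b was not analysed here. Among the tested genes 2 rose and 3 fell, and the median change was -0.027. The share called was 55.6%, against 50.9% over all genes tested. Bnip3 and Bnip3l, atypical BH3-like proteins best known as mitophagy receptors and targets of the hypoxia factor HIF-1, fell by 1.74 ± 0.052 SE and 0.64 ± 0.044 SE (limma adjusted p = 5.1e-11 and 1.4e-07). Bmf, a BH3-only gene linked to anoikis and to detachment from the cytoskeleton, had HD signals of 6.19, 6.11, 6.37, 6.20 and 6.21, against LD signals of 6.71, 6.65, 6.50, 6.73 and 6.49. The groups did not overlap, and the change was -0.40 ± 0.059 SE (limma adjusted p = 6.9e-05), or -0.23 after scaling on the control rows (limma adjusted p = 0.018). Its percentile among all changes was 3.69, and that of Bcl2l11 was 4.30.

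Bok, another effector-like member, rose by 0.20 ± 0.052 SE (limma adjusted p = 0.0064), in the same direction as Bak1, with means of 9.22 in HD and 9.02 in LD. Its groups were barely separate, with a gap of 0.0034. Hrk, a BH3-only gene best known in neurons, rose by 0.15 (limma adjusted p = 0.044), a call kept in 3 of 10 leave-one-out fits. Bcl2l2 (the guardian BCL-W), Bcl2l12, Bcl2l13 and Bik had log2 changes of -0.038, -0.027, 0.093 and 0.11, none past the threshold. Of these, Bcl2l2 and Bcl2l12 changed sign after quantile normalization and after scaling on the control rows, Bcl2l13 passed under both (0.17 and 0.18), and Bik passed after quantile normalization (0.16, limma adjusted p = 0.046). The lymphoid and myeloid guardians Bcl2a1a and Bcl2a1d, near-identical copies, were at 2.70 to 3.05 in all arrays.

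**Figure D4:**
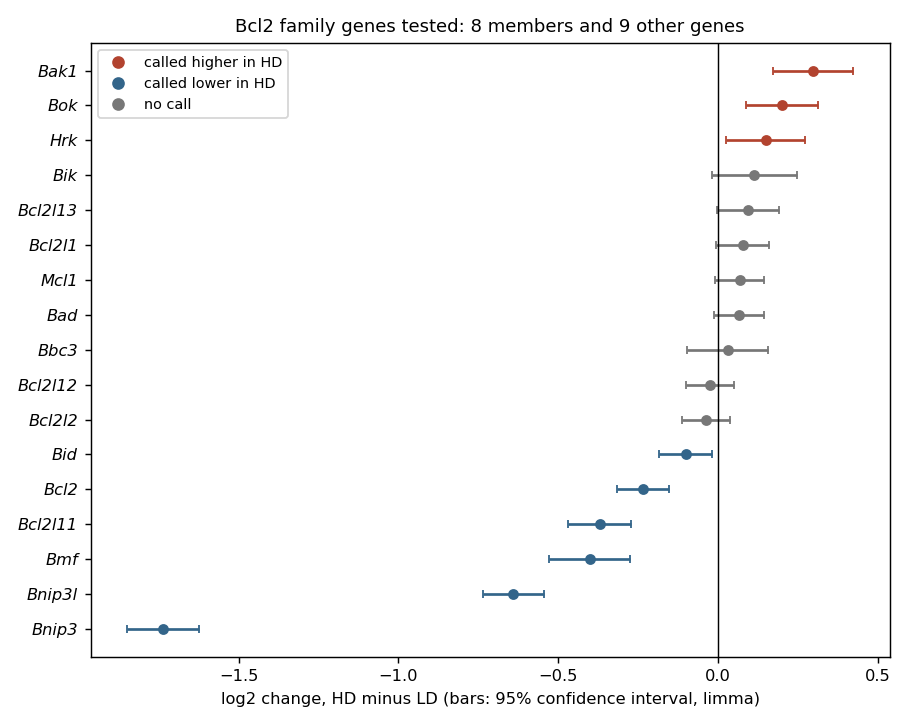
Log2 change (HD minus LD) with its 95% confidence interval from limma for the 8 tested members and 9 other tested genes of the family, ordered by change. Bak1, Bok and Hrk are called higher in HD, 6 genes are called lower, and Bnip3 at -1.74 lies far from the rest.

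Downstream of the family, the list of caspases and apoptosome parts had 3 higher and 3 lower of 8 tested genes, with a median of -0.043. The share called was 75%, against 50.9% over all genes tested. Cycs, which encodes the cytochrome c that BAX and BAK pores release, rose by 1.14 ± 0.071 SE (limma adjusted p = 6.4e-08) on its brighter row and by 0.94 on its other row. By the row identifiers the brighter row lies on another chromosome than the gene. Apaf1, the scaffold that cytochrome c activates, fell by 0.24 ± 0.037 SE (limma adjusted p = 0.00015), about as much as Bcl2. Endog, a mitochondrial nuclease, rose by 0.23. Of 8 inhibitors of apoptosis and their antagonists, 1 rose and 3 fell (median -0.031), a share of 50%, near that over all genes. The ubiquitin ligases Birc2 and Birc3 fell by 0.66 ± 0.053 SE and 0.50 ± 0.041 SE (limma adjusted p = 4.3e-07 and 4.9e-07), and Cflar, the caspase-8 decoy FLIP, fell by 0.27, with -0.29 on the row that lies on its own chromosome.

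Of 6 tested genes of the death receptor pathway, 3 rose and none fell on the brightest rows (median 0.068). The share called was 50%, against 50.9% over all genes tested, of which 31.4% were called higher and 19.5% lower. The receptor Tnfrsf10b rose by 0.16 (limma adjusted p = 0.0011) and the adaptor Fadd by 0.13 (limma adjusted p = 0.040, kept in 4 of 10 leave-one-out fits). The direction of the death receptor Fas was not settled. Its brightest row, on another chromosome than the gene by its identifier, rose by 0.18 (limma adjusted p = 0.012), or differed by 0.0061 after scaling on the control rows (limma adjusted p = 0.94), while the row on the gene's own chromosome fell by 0.78 (limma adjusted p = 2.8e-05 over all rows). That row averaged 7.26 in HD and 8.04 in LD.

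Upstream, 5 of 11 tested transcription factors known to act on family genes rose and 3 fell (median 0.073). Foxo3, an activator of Bcl2l11 and Bbc3, averaged 7.39 in HD and 7.89 in LD and fell by 0.50 ± 0.045 SE (limma adjusted p = 1.1e-06). Ddit3, which encodes the stress factor CHOP, a known activator of Bcl2l11 and repressor of Bcl2, fell by 0.53 ± 0.061 SE (limma adjusted p = 9.3e-06). Its other row, not placed on a chromosome by its identifier, fell by 0.41. Egr1, an immediate early factor, rose by 0.39 ± 0.048 SE (limma adjusted p = 1.6e-05). Trp53 and Nfkb1 were not analysed here. Of 15 tested regulators that act on the family's proteins, 6 rose and 4 fell as deposited (median 0.035), against 3 and 6 after scaling on the control rows. Pim1, a kinase that phosphorylates BAD, fell by 0.42 ± 0.045 SE (limma adjusted p = 5.4e-06). Bag1, a chaperone cofactor first found as a BCL2 partner, rose by 0.40 ± 0.051 SE (limma adjusted p = 2.3e-05). Akt1, which phosphorylates BAD and FOXO factors, rose by 0.28 (limma adjusted p = 3.4e-05) as deposited and differed by 0.078 after scaling on the control rows (limma adjusted p = 0.14). In these 6 lists, between 50% and 75% of tested genes were called, against 50.9% over all genes tested.

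**Figure D5:**
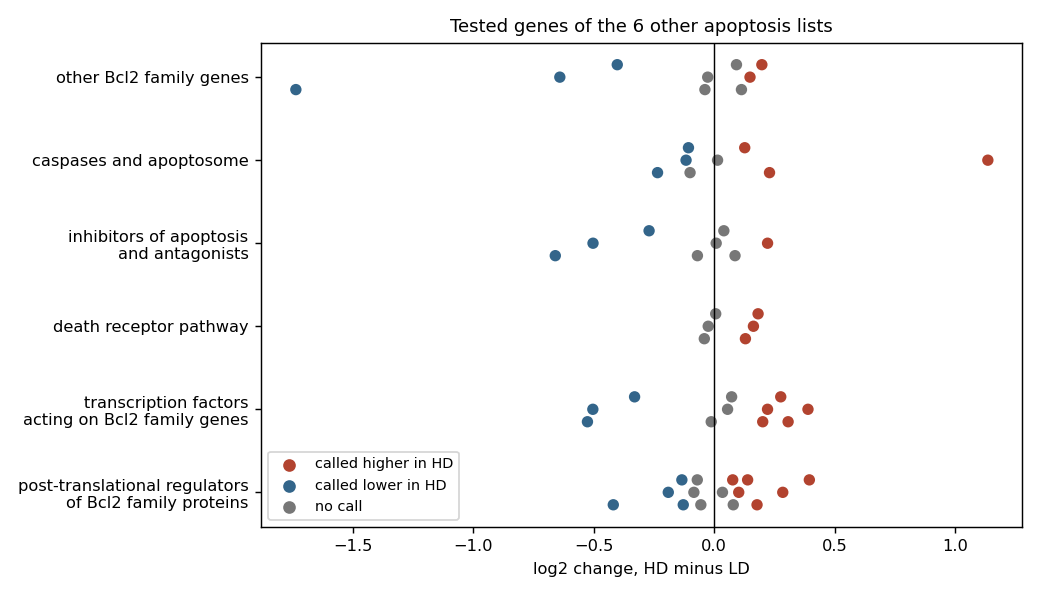
Log2 change (HD minus LD) of each tested gene in the 6 other apoptosis lists, 1 point per gene (red called higher in HD, blue called lower, grey no call). Calls go both ways in every list but the death receptor pathway, where 3 of 6 genes are called higher on their brightest rows, Fas among them. Over all genes tested, 31.4% are called higher and 19.5% lower.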

How the data were processed

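RNA of 10 samples was hybridised to 1-colour Affymetrix MTA 1.0 arrays, 1 array each; array number, rather than depth, limits the precision. The deposited values are log2 signals; the submitters' processing notes name RMA as the authors' method. The sources used here do not give its software, version, annotation or genome build. The log2 scale was taken from the values (1.49 to 14.3). RMA compresses folds. Scan batches were not analysed here.

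Rows were named where the platform annotation gives 1 symbol (30604 rows; 2146 gave several, and 33206 transcript clusters were unnamed), with 827 symbols updated through RefSeq gene IDs. A gene's brightest row was used if its mean exceeded the median of all rows (log2 5.24), leaving 17800 genes. The HD minus LD difference was fitted with limma 3.58.1 (R 4.3.3; lmFit, eBayes, no covariates, two-sided, Benjamini-Hochberg over all genes, threshold 0.05). Groups came from the sample titles. The fit was checked on simulated arrays with independent noise and few changed genes. That check does not cover shifts such as those of the control rows.

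The members, lists and tests were chosen with earlier results of these data known. Named were all members, all tested genes of the wider family, and the 3 called genes with the largest change in each other list; listed genes not matched to a row of their own, or under the floor, stayed out of the test. Deviations of same-numbered HD and LD arrays correlated at 0.19, -0.091, -0.036, 0.22 and -0.025, so the replicate numbers are not taken to pair arrays. No protein sequences were used here. Alternatives were a replicate block, quantile normalization, median centring, linear scaling of each array on the medians of its positive and negative control rows, no filter, a filter at the 75th percentile, averaged rows, all rows, trended and robust variances, array weights, a 1.5-fold threshold and leaving out each array.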

Additional observations from a re-analysis of the deposited data

Results flagged for a closer look

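The signal of Bcl2l1 in HD replicate 5 (7.89) lay apart from the other 4 HD arrays, of which the nearest was at 8.02. The gap was 0.841 of the range of the HD group, above the critical value of 0.71 for 5 samples. It was the single one of 18 gene and group combinations of the members past that value, and chance alone passes about 1 in 20. Without that array the HD minus LD difference of Bcl2l1 was 0.10 in place of 0.077.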

How the results depend on the processing

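The calls of Bcl2l11, Bcl2 and Bak1 kept their direction and their side of the threshold in all alternatives but the 1.5-fold threshold, at -0.43 to -0.34, -0.25 to -0.21 and 0.25 to 0.32. For these genes, with 1 row each, averaged rows, all rows, filter changes, the replicate block and the trended fit could not move the change itself. Bid was called in 5 of 20 alternatives other than the fold threshold (-0.13 to -0.0025; adjusted p = 0.96 after scaling on the control rows). Signs turned for Mcl1 after scaling on the control rows (-0.059), for Bbc3 without HD replicate 3 (-0.012, in a range of -0.012 to 0.075 over the arrays left out), for Bcl2l2 and Bcl2l12 after quantile normalization (0.036 and 0.063) and after scaling on the control rows (0.048 and 0.11), and for Fas when its rows were averaged (-0.30), which joins the 2 rows of opposite direction. With the 1.5-fold threshold no member was called, 416 genes were called in all (138 higher and 278 lower), and the counts were 2 for the other family genes, 1 for caspases and apoptosome, 1 for inhibitors of apoptosis and 0 for the other 3 lists. Testing all transcript cluster rows gave 15059 calls, since more rows were tested; 44.7% of them were higher, and the cause of that share was not tested. Leaving out 1 array gave 7767 to 9050 calls over all genes, 3 to 4 among the members, 4 to 5 among the other family genes, 5 to 7 for caspases and apoptosome, 4 for the inhibitors, 2 to 3 for the death receptor pathway, 8 for the transcription factors and 8 to 9 for the protein regulators. With the replicate block, which the correlations did not bear out, 9058 genes and 3 members were called, Bid dropping out (adjusted p = 0.059), and 1 of 5 HD arrays correlated best with the LD array of its own number. Scan dates and batches were not analysed here.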
